A study of Mus musculus with 4 samples.

Results

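In single-cell RNA-seq of 4 sonic hedgehog (SHH) medulloblastomas, 341 of 6509 cells, 5.24%, carried transcripts of differentiating neurons and of mitosis at once. They were picked by detection, meaning at least 1 unique molecular identifier (UMI, a counted transcript), of at least 4 of the 5 neuronal genes Cntn2, Neurod1, Stmn2, Pnoc and Rab3a and at least 6 of the 10 mitotic genes Ccnb1, Cdc20, Ube2c, Plk1, Cenpe, Cenpf, Cenpa, Hmmr, Kif23 and Prc1. They are called dual cells here. A pair of parent classes was cut from the same tumours for comparison. Neuronal-only cells had at least 4 neuronal and at most 1 mitotic gate gene, and mitotic-only cells had at least 6 mitotic and at most 1 neuronal gate gene. The 15 gate genes and the depth of a cell chose these classes, so their values are given as a description with no test.

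The tumours came from Ptch1+/- mice irradiated at birth, were taken at end point and had no treatment. Every cell of every class carried that genotype and that irradiation, and the series holds no normal cerebellum. Cell suspensions had been frozen alive, were thawed with DNase, sorted for live cells by propidium iodide or DAPI, and run on the 10x Genomics platform. The labels number the tumours 1 to 4 as replicates, without saying whether each came from its own mouse, so the p-values below measure the spread between these 4 libraries.

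Granule cell progenitors of the developing cerebellum divide under SHH signalling, and SHH medulloblastoma arises from them. Normally a progenitor switches off the cycle before it turns on the genes of axon growth and synapses. Mitosis itself runs on a wave of transcripts for the spindle, the kinetochore and the anaphase-promoting complex, most of which are cleared once the cell has divided.

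The neuronal gate genes were Cntn2, an adhesion protein of growing parallel fibres, Neurod1, a transcription factor of granule neuron differentiation, Stmn2, a microtubule regulator of growing axons, Pnoc, the nociceptin precursor, and Rab3a, a GTPase of synaptic vesicles. The mitotic gate genes included Ccnb1, the cyclin that drives entry into mitosis, Cdc20 and Ube2c, which act with the anaphase-promoting complex, and Cenpa, the histone that marks the centromere. On GRCm38 (mm10, GENCODE M21), Cntn2 lies at chr1:132509427-132543256 on the minus strand, Neurod1 at chr2:79452521-79456751 on the minus strand, Cdc20 at chr4:118432901-118437352 on the minus strand and Ccnb1 at chr13:100778650-100786570 on the minus strand. The promoter windows of a pair from each side are shown because the gate rests on these genes. They run from 250 bases before to 50 bases after the start of transcription, as RefSeq gives it on GRCm38.p6, at chr4:118437294-118437593 (minus strand) for Cdc20, chr2:164769679-164769978 (plus strand) for Ube2c, chr1:132542891-132543190 (minus strand) for Cntn2 and chr2:79456587-79456886 (minus strand) for Neurod1. Capitals mark the cell cycle homology region motif (TTTGAA or TTCGAA) and the CCAAT box (CCAAT), each searched on both strands.
Cdc20: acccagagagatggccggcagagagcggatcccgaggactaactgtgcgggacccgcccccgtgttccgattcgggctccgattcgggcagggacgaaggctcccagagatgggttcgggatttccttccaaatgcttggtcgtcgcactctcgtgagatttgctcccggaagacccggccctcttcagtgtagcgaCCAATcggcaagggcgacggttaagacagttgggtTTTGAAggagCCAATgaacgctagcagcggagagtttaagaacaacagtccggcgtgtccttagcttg
Ube2c: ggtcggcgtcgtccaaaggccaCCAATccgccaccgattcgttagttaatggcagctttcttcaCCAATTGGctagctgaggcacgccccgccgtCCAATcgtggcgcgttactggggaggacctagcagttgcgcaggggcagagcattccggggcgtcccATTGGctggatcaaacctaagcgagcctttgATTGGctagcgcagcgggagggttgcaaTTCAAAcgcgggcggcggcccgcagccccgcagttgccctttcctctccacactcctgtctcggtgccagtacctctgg
Cntn2: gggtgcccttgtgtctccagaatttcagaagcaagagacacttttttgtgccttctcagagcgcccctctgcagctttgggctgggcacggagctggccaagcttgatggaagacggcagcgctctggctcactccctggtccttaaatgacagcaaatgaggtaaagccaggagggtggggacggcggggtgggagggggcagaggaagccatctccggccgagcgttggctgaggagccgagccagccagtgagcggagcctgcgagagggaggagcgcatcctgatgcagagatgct
Neurod1: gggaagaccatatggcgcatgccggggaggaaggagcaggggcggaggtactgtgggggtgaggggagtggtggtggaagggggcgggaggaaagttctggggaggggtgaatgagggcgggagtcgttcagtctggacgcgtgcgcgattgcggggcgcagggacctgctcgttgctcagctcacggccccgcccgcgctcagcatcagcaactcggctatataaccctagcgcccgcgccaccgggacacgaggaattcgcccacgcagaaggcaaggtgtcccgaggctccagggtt
Both motifs are known as elements that control genes of late cycle, the first bound by the DREAM complex and the second by NF-Y. In these windows Cdc20 and Ube2c held both, and Cntn2 and Neurod1 held neither, which says only that these letters were not in these windows. Of the 15 gate genes, 13 had a RefSeq window, and the first listed start was used for Prc1 and Rab3a. The cell cycle homology region was in 8 of the 10 mitotic gate windows, in 1 of the 3 neuronal ones (that of Rab3a) and in 19.4% of 27025 mouse windows of the same length. CCAAT was in 10 of 10 mitotic windows, in 1 of 3 neuronal ones (that of Rab3a) and in 37.9% of all windows. The letters CAGATG, an E-box of proneural factors, were in 1 of 10 mitotic windows, in 0 of 3 neuronal windows and in 17.2% of all. No cell cycle homology region overlapped a CCAAT box in the 13 windows.

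The libraries held 798, 2589, 1229 and 1893 cells for tumours 1 to 4. Median UMIs per cell were 15283.5 in tumour 1 and between 6799 and 7825 in the other 3, so tumour 1 was the deepest; its part in shares that rest on detection was not tested. Library totals ran from 10458431 to 23439893 UMIs. Between 0 and 7 cell barcodes were shared by any pair of libraries. Immune transcripts were unevenly spread, with the 18 immune marker genes summing to 28463 CPM (UMIs scaled to a common library total) over all cells of tumour 4 and to between 474 and 3473 CPM in the others.

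The dual cells were not evenly spread over the tumours. In tumour 1, 145 of 798 cells were dual, 18.2% (95% exact binomial interval 15.6 to 21.02%). The other tumours had 92 of 2589 cells (3.55%, 2.87 to 4.34%) in tumour 2, 60 of 1229 (4.88%, 3.75 to 6.24%) in tumour 3 and 44 of 1893 (2.32%, 1.69 to 3.11%) in tumour 4. The mean share was 7.23% ± 7.37 (SD, n = 4), and it was 3.59% without tumour 1. The intervals cover counting error only. The order of tumours 2 to 4 changed when cells with over 1% of their UMIs from the 18 immune genes were left out. This alternative was chosen after seeing the data. The shares were then 20.5%, 3.71%, 4.93% and 5.24% in tumours 1 to 4, which put tumour 4 above tumours 2 and 3. The same tumours gave 20, 324, 90 and 48 neuronal-only cells and 65, 103, 44 and 59 mitotic-only cells.

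Most dual cells passed the neuronal gate at its lowest value. Of the 341, 247 had 4 neuronal genes and 94 had all 5, while 202 had 9 or 10 mitotic genes and 139 had 6 to 8. Stmn2 and Rab3a were detected in all dual cells of all 4 tumours, Neurod1 as well, and Cntn2 in 97.9%, 88.0%, 91.7% and 93.2% of them in tumours 1 to 4. Pnoc was the gene usually missing, with detection in 39.3%, 26.1%, 23.3% and 47.7%. On the mitotic side Ube2c was detected in 96.7 to 97.7% of dual cells and Ccnb1 in 91.7 to 95.9%, whereas Hmmr, a spindle protein, was detected in 50% to 73.1%. Just inside the gate, 40 cells had 4 neuronal and 6 mitotic genes. Just outside it, 529 cells had 3 neuronal and at least 6 mitotic genes, and 42 had at least 4 neuronal and 5 mitotic genes.

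Dual cells held more UMIs than either parent class in every tumour. In tumour 1 the median was 54746 UMIs in dual cells, against 14601.5 in neuronal-only and 13623 in mitotic-only cells. In tumour 2 it was 15862.5 UMIs, against 5600 and 10376. In tumour 3 it was 19510.5 UMIs, against 4831 and 7468.5. Tumour 4 had the second deepest dual cells, at 24505 UMIs, against 7857.5 in neuronal-only and 7883 in mitotic-only cells. The ratio of medians to neuronal-only cells was 3.75, 2.83, 4.04 and 3.12 in tumours 1 to 4, a mean of 3.43 ± 0.56 (SD, n = 4). The ratio to mitotic-only cells was 4.02, 1.53, 2.61 and 3.11, a mean of 2.82 ± 1.04. Tumour 2 was the one in which dual cells lay nearest to their mitotic-only cells in depth.

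The sum of the parent medians gives the depth of a pair of cells read together. The median depth of dual cells was 1.94, 0.993, 1.59 and 1.56 times the sum of the parent medians in tumours 1 to 4. Dual cells above that sum made up 83.4%, 48.9%, 73.3% and 79.5% of the class, and those below the larger parent median made up 2.76%, 19.6%, 5% and 4.55%. So the class reached beyond the summed depth of these parents in 3 of the 4 tumours and straddled it in tumour 2. These parents, held to at most 1 gene of the other gate, were shallower than parents made of all other cells of each gate. The latter had medians of 15353, 6075, 5845 and 9808 UMIs on the neuronal side in tumours 1 to 4. On the mitotic side they had 18678, 11207, 10057 and 12014 UMIs, which lowers the ratios to the sum. Depth entered the gate through detection, and its part in these ratios was not tested.

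**Figure D1:**
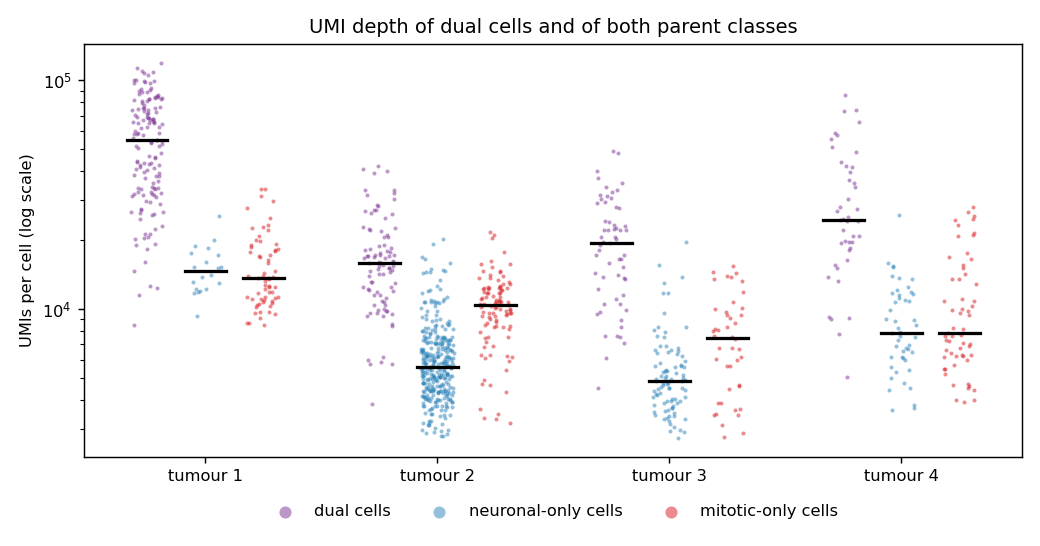
UMIs per cell on a log scale for dual, neuronal-only and mitotic-only cells of each tumour, with a point for each cell and a bar at the median. Dual cells had the highest median in all 4 tumours, from 15862.5 UMIs in tumour 2 to 54746 in tumour 1.

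The share of dual cells climbed with depth inside each tumour. Among cells from 5000 up to 10000 UMIs, 0.633%, 1.15%, 1.63% and 0.809% were dual in tumours 1 to 4. From 10000 up to 20000 UMIs, called the matched range below and chosen after seeing the data, the shares were 2.33%, 7.58%, 8.89% and 1.88%, and from 20000 up to 40000 UMIs they were 24.3%, 20.4%, 44.1% and 16.5%. At 40000 UMIs or more, 95 of 128 cells of tumour 1 (74.2%) and 12 of 17 of tumour 4 (70.6%) were dual, beside 3 of 6 and 3 of 5 cells in tumours 2 and 3. In the matched range the order of the tumours changed. There tumours 2 and 3 had the higher shares, whereas over all cells tumour 1 had. This range, also called matched depth below, brought the classes closer in depth without making them equal. Median UMIs in it were 15354, 15242.5, 14802 and 18154 in dual cells of tumours 1 to 4. They were 14073, 12004, 13383 and 12028.5 in neuronal-only and 13252, 11944, 13634.5 and 13570 in mitotic-only cells, so dual cells stayed the deepest class.

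**Figure D2:**
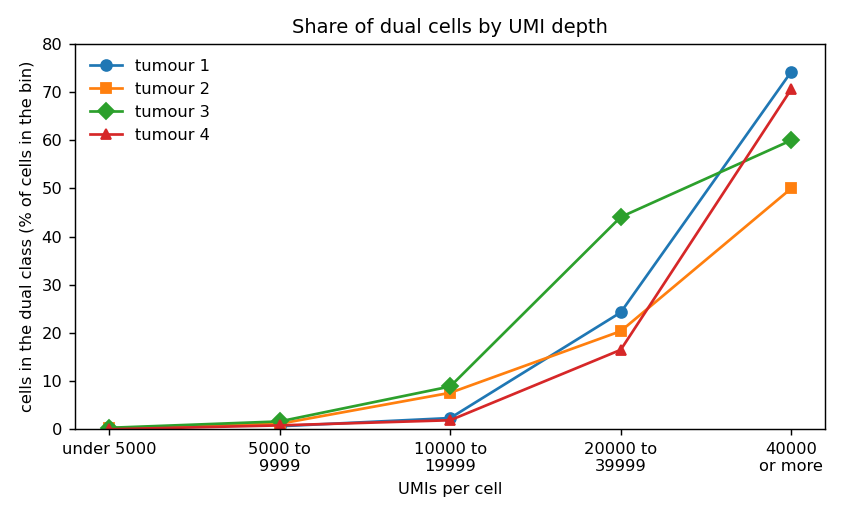
Share of cells in the dual class, in percent of the cells of each depth bin, by UMIs per cell, with a line for each tumour. The share was 1.63% or less in every tumour below 10000 UMIs and reached 74.2% in tumour 1 and 70.6% in tumour 4 at 40000 UMIs or more, where tumours 2 and 3 had 6 and 5 cells.

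Thinning every cell to 4900 UMIs removed most of the class. Of 339 dual cells deep enough to be thinned, 30 still passed both gates, 4, 16, 7 and 3 in tumours 1 to 4. The mean share of dual cells was 0.555% after thinning, against 7.23% on all UMIs. Genes per cell at that depth were close between the classes, apart from fewer genes in mitotic-only cells of tumour 4. Medians were 2053, 2129, 2244 and 2020 in dual cells of tumours 1 to 4. They were 2151, 2152, 2256.5 and 2099.5 in neuronal-only cells and 2085, 2107.5, 2164 and 1754 in mitotic-only cells. In tumour 4 the quartiles were 1711 and 1944 in mitotic-only cells and 1967 and 2117.75 in dual cells. The median in dual cells was below that of neuronal-only cells in all 4 tumours. The median share of mitochondrial transcripts in dual cells was 3.68%, 2.94%, 3.56% and 5.28%, against 3.78%, 3.36%, 3.42% and 4.67% in neuronal-only and 3.38%, 2.66%, 3.23% and 3.87% in mitotic-only cells.

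Cells in mitosis passed the neuronal gate less or more often than other cells depending on the tumour and on the depth at which they were read. On all UMIs, 41.4% of mitotic-gate cells of tumour 1 passed the neuronal gate, against 12.3% of its other cells. The values were 13.1% against 22.8% in tumour 2, 17.9% against 18.9% in tumour 3 and 20.7% against 6.61% in tumour 4. In the matched range the values were 8.08% against 13.5%, 13.1% against 25.8%, 15.9% against 30.3% and 15.9% against 6.98%. After thinning, mitotic-gate cells had the lower share in all 4 tumours, 2.70%, 3.61%, 3.78% and 2.89%, against 6.77%, 14.7%, 11.5% and 6.67% of other cells. Tumours 1 and 4 had the opposite order on all UMIs, and tumour 4 had it in the matched range as well. In tumour 4, 1073 of 1893 cells held over 1% immune UMIs, and 7 of these 1073 passed the neuronal gate. Most of them thus counted among its other cells. Their part in the values of tumour 4 was not tested.

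**Figure D3:**
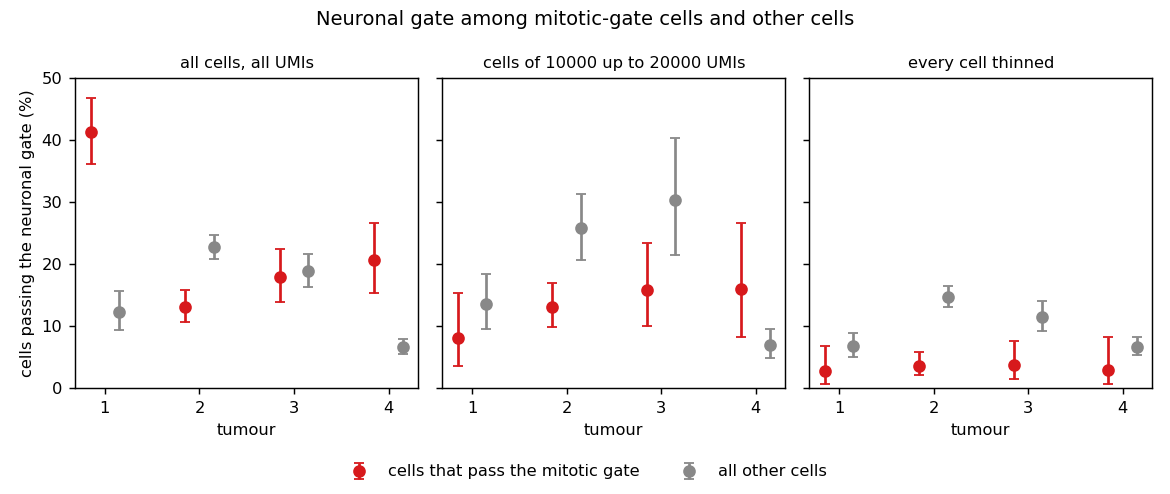
Percent of cells passing the neuronal gate among mitotic-gate cells and among other cells of each tumour, on all UMIs, within the matched range of 10000 to 20000 UMIs and after thinning to 4900 UMIs, with 95% exact binomial intervals that cover counting error only. After thinning, the mitotic-gate cells lay at 2.70 to 3.78% and the other cells at 6.67 to 14.7%.

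Pairs of cells in 1 droplet can be counted only under an assumed rate. At 0.8% doublets per 1000 cells, a rate assumed here and not measured in these libraries, the 4 tumours would hold 5.09, 53.6, 12.1 and 28.7 doublets of any kind. Of these, pairs of a cell that passed the neuronal gate alone and a cell that passed the mitotic gate alone would number 0.1804, 4.204, 0.744 and 0.3001, beside 145, 92, 60 and 44 dual cells observed. This count took in all cells of either gate that were not dual, a wider choice than the parent classes. Pairs in which a cell passed neither gate were not counted. The doublet caller Scrublet marked 21 cells in all (0.323%), 5 of them dual, 3 in tumour 2 and 2 in tumour 3. At under 0.5% of cells the caller was taken not to have worked, and no cells were removed.

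In absolute transcripts a dual cell held more of both programmes than its parents. A median dual cell held 363, 166.5, 197.5 and 228.5 UMIs of 30 early neuron genes outside the gate in tumours 1 to 4, against 159.5, 137, 106.5 and 127.5 in neuronal-only cells, ratios of 2.28, 1.22, 1.85 and 1.79. It held 545, 285.5, 287.5 and 267.5 UMIs of 76 mitosis genes outside the gate, against 283, 249, 168.5 and 149 in mitotic-only cells, ratios of 1.93, 1.15, 1.71 and 1.795. Tumour 2 had the smallest of both ratios. As CPM, which sets the cell's UMIs to a common total, the picture turned round, and both programmes were lower in dual cells than in the parent that carried them.

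The early neuron genes, which steer migration, axon growth and neuronal RNA processing, summed to 6566, 10857, 10952 and 8628 CPM in dual cells of tumours 1 to 4. In neuronal-only cells they summed to 12196, 24474, 20072 and 15105 CPM, and in mitotic-only cells to 3945, 5046, 5863 and 3720 CPM. In every tumour dual cells lay between their parents, 31.8%, 29.9%, 35.8% and 43.1% of the way from mitotic-only to neuronal-only cells over all depths. The matched range held 8, 50, 20 and 11 dual cells, 17, 29, 6 and 16 neuronal-only cells and 45, 54, 10 and 13 mitotic-only cells. In it dual cells lay 93.8%, 35.2%, 63.8% and 55.0% of the way. The mitosis genes outside the gate summed to 10322, 19750, 15123 and 9886 CPM in dual cells, against 3946, 3765, 4402 and 3342 CPM in neuronal-only and 19389, 25652, 25310 and 16704 CPM in mitotic-only cells. That was 0.53, 0.77, 0.60 and 0.59 of the mitotic-only level. Set against the arithmetic mean of both parents, dual cells had 0.81, 0.74, 0.84 and 0.92 of the early neuron level and 0.88, 1.34, 1.02 and 0.99 of the mitosis level. In the matched range the ratios to that mean were 1.45, 0.814, 1.13 and 1.06 for early neuron genes and 1.33, 1.39, 0.942 and 0.983 for mitosis genes. The early neuron level thus lay below the mean of both parents in all 4 tumours over all depths, but above it in tumours 1, 3 and 4 in the matched range. Dual cells were still the deepest class there, and some of its classes were small.

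**Figure D4:**
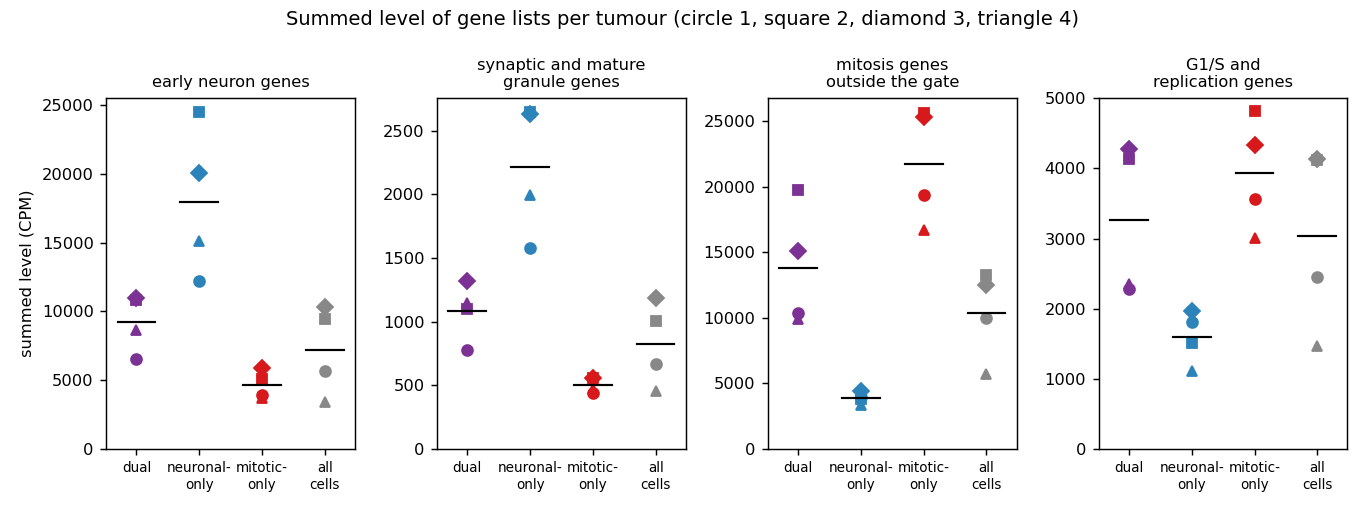
Summed level in CPM of 4 gene lists in dual, neuronal-only, mitotic-only and all cells, with a symbol for each tumour and a bar at the mean. In early neuron genes and in mitosis genes outside the gate, dual cells lay between the parent classes in all 4 tumours.

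Gene by gene, dual cells were first set against neuronal-only cells in the same tumour, with limma on log2(CPM + 10), the tumour as a block and Benjamini-Hochberg adjustment over 11808 genes. At an adjusted p under 0.05, 944 genes (7.99%) were higher and 1117 (9.46%) lower in dual cells, 17.5% in all, and the median difference over all genes was -0.02. Without tumour 3 the counts were 619 and 707, without tumour 2 they were 635 and 710, and within the matched range they were 194 (1.78%) and 96 (0.883%) of 10871 genes. When mean deposited log2 values replaced the sums, the split was 1145 higher and 207 lower.

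Neuronal genes outside the gate were lower in dual cells than in neuronal-only cells, though both classes had passed the same neuronal gate. Of the 30 early neuron genes, 25 fell and 0 rose, with a median difference of -0.90 on the log2 scale. Tubb3, the neuronal beta-tubulin (chr8:123411424-123422015, plus strand), had 428, 1539, 1116 and 537 CPM in dual cells of tumours 1 to 4, against 1340, 4701, 2563 and 1427 CPM in neuronal-only cells. Within each tumour the dual level was below the neuronal-only level. The difference was -1.45 ± 0.09 (SE; limma adjusted p = 8.74e-12), and within the matched range it was -0.78 (adjusted p = 5.56e-05). Map1b, a microtubule protein of growing axons (chr13:99421446-99516540, minus strand), had 239.6, 749, 673 and 562 CPM in dual cells, against 658, 1805, 1366 and 1072 CPM in neuronal-only cells, a difference of -1.15 ± 0.10 (limma adjusted p = 1.57e-09). The transcription factor Nhlh2 differed by -1.41, the RNA-binding protein Elavl4 by -1.39 and the stathmin Stmn4 by -1.34, each lower in 4 of 4 tumours. Dcx, a microtubule protein of migrating neurons, was lower by a difference of -0.79 ± 0.13 (limma adjusted p = 9.17e-05). At matched depth 12 of the 30 fell, and the median difference was -0.54.

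Synaptic genes took the same direction. Of 28 genes of synapses and mature granule cells, 22 were tested and 14 fell in dual cells, with a median difference of -0.78. Chgb, a secretory granule protein, had 26.0, 50.2, 38.4 and 38.6 CPM in dual cells, against 126, 208, 124 and 158 CPM in neuronal-only cells, the largest fall of the list at -1.76 ± 0.14 (limma adjusted p = 6.15e-10). The RNA-binding protein Celf4 differed by -1.23 and the vesicle protein Syp by -1.16. At matched depth 3 of 21 fell. Myh7b, a myosin heavy chain, gave the largest fall of all named genes, with 13.8, 14.4, 13.1 and 8.0 CPM in dual cells, against 56.2, 63.2, 72.2 and 71.9 CPM in neuronal-only cells (difference -1.77 ± 0.18). The next in order after Chgb were A330076H08Rik, A930011G23Rik and E130309F12Rik, to which no role is given here.

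The mitotic side of this comparison follows from the gate, so its values and its counts past the threshold are a description and no support. Of the 76 mitosis genes outside the gate, 74 were past the threshold and higher in dual cells, with a median difference of 1.85. Ccna2, the cyclin of S phase and G2 (chr3:36564865-36572150, minus strand), had 101, 299, 193 and 152 CPM in dual cells, against 13.2, 12.3, 28.1 and 18.6 CPM in neuronal-only cells. The largest differences were 3.40 for the replication-dependent histone Hist1h2ap, 3.08 for the spindle protein Nusap1, 2.83 for the topoisomerase Top2a and 2.78 for Birc5, the survivin of the chromosomal passenger complex. Of 35 genes of G1/S and replication, 26 were past the threshold and higher, with a median of 0.85; they are described only, since the gate chose cycling cells. Rrm2, a subunit of ribonucleotide reductase, differed by 1.81 ± 0.28. Pcna, the clamp of the replication fork, differed by 0.96 ± 0.13 and the helicase subunit Mcm5 by 0.94 ± 0.17. In the matched range 11 of these 35 were past the threshold.

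SHH pathway and progenitor genes moved in part. Of 15 SHH pathway genes, 11 were tested and 5 rose in dual cells against neuronal-only cells, with a median of 0.49. Gli1, the transcription factor and target gene that reads out the pathway (chr10:127329882-127341974, minus strand), had 48.1, 50.8, 67.0 and 27.7 CPM in dual cells, against 43.0, 12.3, 18.05 and 11.6 CPM in neuronal-only cells. The level in tumour 1 hardly differed, and the other 3 tumours stood apart. The difference was 0.96 ± 0.20 (limma adjusted p = 0.00136), but 0.31 (adjusted p = 0.755) within the matched range, where 0 of the 10 tested genes of the list passed by limma, with 1401 of 10871 genes at an unadjusted p under 0.05. The SHH co-receptor Gas1 differed by 1.46, the SHH-binding Hhip by 0.79, the receptor Smo by 0.65 and Gli2 by 0.61. Of 17 progenitor genes tested, Atoh1, the factor that holds granule progenitors in their state, was the one that rose (0.57 ± 0.17, limma adjusted p = 0.0336, higher in 3 of 4 tumours). Zic1, Zic4, Pax6, Meis1 and Id2, transcription regulators of the lineage, fell, by differences of -0.76, -0.39, -0.62, -0.78 and -0.50. Mycn differed by -0.08 (adjusted p = 0.721) and Ccnd1, a cyclin of G1, by 1.19 ± 0.41 without passing (limma adjusted p = 0.175).

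Genes of cycle exit split evenly. Of 18, 6 rose and 6 fell in dual cells against neuronal-only cells. Btg1, an antiproliferative gene, had 351, 262, 315 and 279 CPM in dual cells, against 559, 527, 562 and 585 CPM in neuronal-only cells, with no overlap between the classes and a difference of -0.87 ± 0.10 (limma adjusted p = 4.22e-07). The kinase inhibitor Cdkn1b, which rises as granule progenitors stop dividing, had 47.0, 74.0, 124 and 129 CPM in dual cells, against 86.0, 114, 168 and 190.3 CPM in neuronal-only cells. It was lower in each tumour while the classes overlapped across tumours, with a difference of -0.56 ± 0.13 (limma adjusted p = 0.00216). Gadd45a, Tob1, Btg2 and Mxd4 also fell. The members that rose were Cdkn3, Mxd3, Cdkn2c, Cdkn1a, Gadd45g and Rbl1, by 1.91, 1.72, 0.83, 0.81, 0.74 and 0.64. Cdkn3 and Mxd3 are known to peak in dividing cells, so the list's name does not describe them.

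Ribosomal protein genes rose as a broad, shallow block in dual cells against neuronal-only cells, 65 of 82, with a median difference of 0.30. Rpl22l1 differed by 0.63 ± 0.09 (limma adjusted p = 1.59e-05). Within the matched range 1 of 82 rose and the median was 0.05. Of 16 nuclear genes of oxidative phosphorylation, 3 rose.

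Against mitotic-only cells, limma tested 11809 genes and found 879 (7.44%) higher and 434 (3.68%) lower in dual cells, 11.1% in all, with a median difference of 0.05. Without tumour 1 the counts were 580 and 217, and without tumour 4 they were 457 and 282. Within the matched range, they were 252 (2.37%) and 118 (1.11%) of 10631 genes. When mean deposited log2 values replaced the sums, they were 1065 and 142. This comparison uses the same dual cells as the one above, so their results are not independent.

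Mitosis genes outside the gate were lower in dual cells than in mitotic-only cells, though both classes had passed the same mitotic gate. Of the 76 genes outside the gate, 62 fell and 0 rose, with a median difference of -0.71. By role those that fell were 21 of 24 genes of the kinetochore and its checkpoint, 21 of 26 of the spindle and cytokinesis, and 20 of 26 of chromosomes and G2. Birc5 (chr11:117849251-117855743, plus strand) had 227, 310.5, 208 and 166 CPM in dual cells of tumours 1 to 4, against 392, 457, 505 and 433 CPM in mitotic-only cells. The classes did not overlap, and the difference was -0.97 ± 0.12 (limma adjusted p = 6.42e-06). Ccna2 was at 313, 482, 423 and 267 CPM in mitotic-only cells, and the dual levels given above were lower in each tumour, by a difference of -1.02 ± 0.13 (limma adjusted p = 4.86e-06). Ncapg, a condensin subunit, differed by -1.05, the import factor Kpna2 by -0.99, the kinesin Kif20a by -0.92 and the checkpoint kinase Bub1 by -0.93. Mki67, a protein of the chromosome surface used as a mark of cycling cells, had 118, 192, 208 and 91.1 CPM in dual cells, against 223, 250.0, 341 and 169 CPM in mitotic-only cells (difference -0.68 ± 0.12, limma adjusted p = 0.00032). Within the matched range 32 of the 76 fell, and the median of -0.65 was close to that over all depths.

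Replication genes differed less between these classes. Of 35, 8 fell and 1 rose in dual cells against mitotic-only cells, with a median of -0.25. The one that rose was E2f1, the transcription factor of S phase entry, at 52.3, 80.3, 80.9 and 63.4 CPM in dual cells, against 36.8, 54.5, 55.8 and 39.1 CPM in mitotic-only cells (0.49 ± 0.14, limma adjusted p = 0.0267). At matched depth 0 of 35 passed by limma in either direction, with 1603 of 10631 genes at an unadjusted p under 0.05.

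The neuronal side of this comparison follows from the gate, so its values and counts are a description and no support. Of the early neuron genes 25 of 30 were higher in dual cells, with a median of 1.01, and of the synaptic genes 14 of 22, with a median of 0.69. Tubb3 was at 137, 412, 364 and 133 CPM in mitotic-only cells, a difference of 1.74. The synaptic gene Grin2b, an NMDA receptor subunit, differed by 1.47. The largest differences outside the lists were in Aplp1, a relative of the amyloid precursor protein, BC005764, Shf and Sez6l2. Of 17 progenitor genes, which the gate did not name, 6 rose and 0 fell. They were Zic2, Zic1, Pax6, Ccnd2, Zic4 and Barhl1, at differences of 1.03, 0.76, 0.59, 0.52, 0.48 and 0.47. Zic1, Pax6 and Zic4 were lower in dual than in neuronal-only cells, as given above, and so lay between the parents. The part of the neuronal gate in these rises was not tested. Ccnd2, the D cyclin of granule progenitors (chr6:127125162-127152193, minus strand), had 525, 1068, 1361 and 854 CPM in dual cells, against 325, 873, 931 and 570.5 CPM in mitotic-only cells (limma adjusted p = 0.000913). Against neuronal-only cells, at 439.9, 1021, 1408 and 812 CPM, its difference was 0.08 (adjusted p = 0.57). Of the SHH genes, Sufu, an inhibitor of GLI factors, rose by 0.58 and Gas1 fell by 0.77 on the log2 scale, while Gli1 differed by -0.13 (adjusted p = 0.651).

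**Figure D5:**
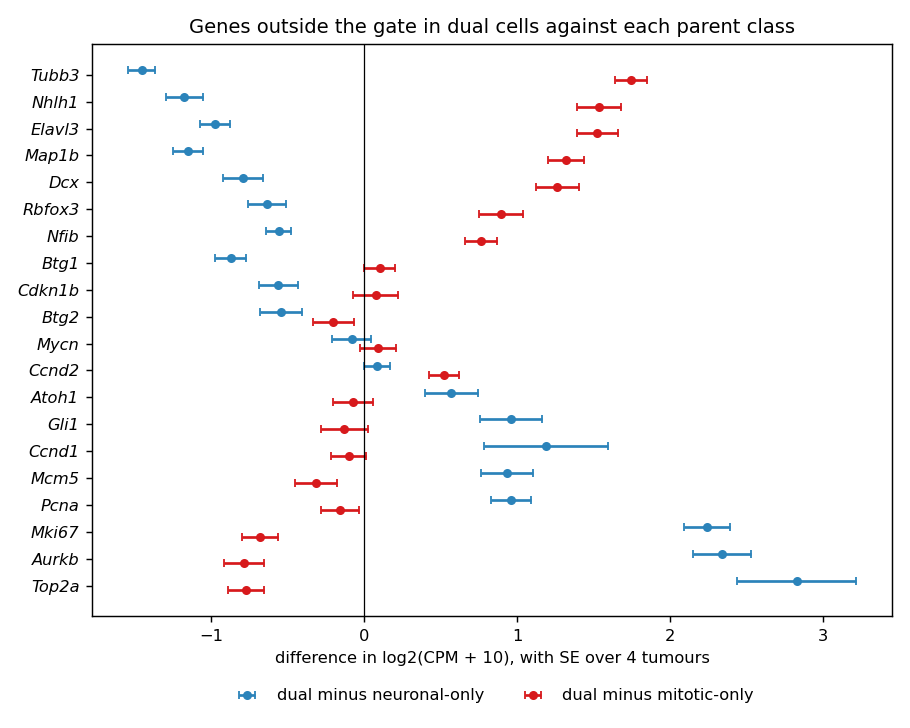
Difference in log2(CPM + 10) of genes outside the gate, dual minus neuronal-only cells and dual minus mitotic-only cells, with SE over 4 tumours. Neuronal genes such as Tubb3 lay below 0 against neuronal-only cells (-1.45) and above 0 against mitotic-only cells (1.74), and Mki67 lay the other way (2.24 and -0.68).

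The genes that fell most against mitotic-only cells were Cd52, Crip1, Fxyd5, Ifi30 and Emp3, with differences of -2.33, -1.93, -1.87, -1.84 and -1.75. Cd52 and Ifi30 are known from immune cells, and the immune markers moved with them. The 18 immune genes summed to 514, 469, 31.1 and 1852 CPM in dual cells of tumours 1 to 4, against 979, 54.3, 42.1 and 5634 CPM in neuronal-only and 2372, 547, 3126 and 5446 CPM in mitotic-only cells. The dual level was the lowest of the 3 classes in tumours 1, 3 and 4. Of the 18 genes, 15 were tested and only Ptprc, the leukocyte marker CD45, passed, with a difference of -0.83 (limma adjusted p = 0.00659). Against neuronal-only cells Aif1, a gene of microglia and macrophages, was the one of the 15 past the threshold, which is given as a description. It was so scarce in neuronal-only cells that it entered the test through the deeper dual cells. The part of depth and of the detection filter in its difference was not tested. Its level was 8.49, 13.8, 2.45 and 24.1 CPM in dual cells, against 0, 0.988, 0 and 9.28 CPM in neuronal-only cells, a difference of 0.78 ± 0.18 (SE). Its difference was 0.22 in the matched range (limma adjusted p = 0.842). In dual cells of tumour 3, 10 of the 15 listed there were seen, and Ptprc, Cx3cr1 and P2ry12 were at 0. At least 3 immune genes were detected in 141 of 145 dual cells of tumour 1, 5 of 92 of tumour 2, 1 of 60 of tumour 3 and 44 of 44 of tumour 4, beside 700, 204, 18 and 1890 of all cells in these libraries. When cells with over 1% immune UMIs were left out, an alternative chosen after seeing the data, the differences were -0.38 for Cd52, -0.38 for Crip1, -0.32 for Fxyd5, -0.06 for Ifi30, -0.50 for Emp3 and -0.17 for Ptprc, and none of the 6 passed (limma adjusted p from 0.102 to 0.88). Under that alternative 26 of 30 early neuron genes were higher and 62 of 76 mitosis genes lower in dual cells than in mitotic-only cells. Over all 11887 genes tested there, 870 were higher and 376 lower. The early neuron count follows from the neuronal gate, so it is a description and no support.

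Cells rich in immune UMIs passed both gates less often than all cells of the same library. Of all cells, 200 of 798, 522 of 2589, 229 of 1229 and 155 of 1893 passed the neuronal gate in tumours 1 to 4. The mitotic gate was passed by 350, 703, 335 and 213 of them. Of cells with over 1% immune UMIs, 1 of 92, 1 of 138, 0 of 12 and 7 of 1073 passed the neuronal gate in tumours 1 to 4, at median depths of 10782, 5790, 8381 and 7743 UMIs, and 4, 4, 2 and 7 passed the mitotic gate. Together they held 2 dual cells, 1 in tumour 2 and 1 in tumour 4. These depths were below those of dual cells in every tumour, and the part of free RNA in the dual class was not tested.

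Against the arithmetic mean of both parent classes, few genes stood out. Of 11813 genes, limma found 50 (0.423%) higher and 152 (1.29%) lower in dual cells, 1.71% in all, with a median difference of -0.01. Without tumour 3 the counts were 14 and 68, without tumour 4 they were 21 and 93, and without tumour 1 they were 38 and 73. Within the matched range, they were 1 (0.00905%) and 5 (0.0452%) of 11051 genes. None of the 76 mitosis genes passed in either direction by limma, with 1745 of 11813 genes at an unadjusted p under 0.05, and their median was 0.04. Of the early neuron genes 9 of 30 fell and 0 rose, with a median of -0.24. At matched depth 0 of 30 passed by limma, with 797 of 11051 genes at an unadjusted p under 0.05, and the median was 0.08. Tubb3 is an example, at -0.61 ± 0.08 (limma adjusted p = 9.85e-05) over all depths and at 0.05 (adjusted p = 0.969) in that depth range.

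Some genes were above both parents or above their mean. Hist1h2ap (chr13:21833026-21833507, minus strand), a histone H2A gene of a cluster of near-identical copies whose reads may be split between copies, had 2744, 982, 943 and 832 CPM in dual cells, against 222, 60.2, 72.2 and 123 CPM in neuronal-only and 3257, 1091, 723 and 914 CPM in mitotic-only cells. Dual cells were near the mitotic-only level, and above the mean of both parents by 0.83 ± 0.09 (limma adjusted p = 8.48e-06). At matched depth the difference was 0.63 (adjusted p = 0.00152). Taf10, a subunit of TFIID, had 144, 83.4, 92.3 and 114 CPM in dual cells, against 82.7, 55.8, 44.1 and 37.1 CPM in neuronal-only and 88.5, 52.6, 32.3 and 61.0 CPM in mitotic-only cells. It was above both parents in all 4 tumours, by 0.84 ± 0.12 against their mean (limma adjusted p = 0.00013), yet at -0.20 (adjusted p = 0.916) within the matched range. The linker histone H1fx differed by 0.82 and the RNA export factor Alyref by 0.69. Of replication genes 4 of 35 rose against the mean, namely Clspn, a checkpoint mediator, Hells, a chromatin remodeller, E2f1 and Cdt1, a licensing factor, by 0.69, 0.62, 0.49 and 0.47. None of the 35 passed within the matched range by limma. Genes that fell most were Crip1, Fxyd5, Ifi30, Emp3 and H2-DMb1, an antigen presentation gene, by differences of -1.60, -1.45, -1.41, -1.31 and -1.28. Without the cells of over 1% immune UMIs they were at -0.50, -0.17, -0.24, -0.33 and 0.01, and none of the 5 passed (limma adjusted p from 0.173 to 0.984).

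Oligodendrocyte lineage genes moved in part, from low levels. Of 8 tested, 3 rose and 1 fell against neuronal-only cells and 3 rose against mitotic-only cells. Sox10, a factor of the oligodendrocyte lineage, stood 0.62 above the mean of both parents. It was at 3.1, 1.3, 10.6 and 23.3 CPM in dual cells, against 0, 0, 0 and 7.0 CPM in neuronal-only and 0, 0, 0 and 9.4 CPM in mitotic-only cells. Sox10 and Gpr17, a receptor of oligodendrocyte precursors, stood above both parents, Sox10 by 0.64 and 0.60 and Gpr17 by 0.57 and 0.52. The counts above take both in. Both were at 0 in several parent classes, so the size of these differences depends on the 10 CPM added. A gene entered the test when 5% of the cells of any class compared held it. A gene scarce in the parents, as Sox10 was, entered through the deeper dual cells. These differences are therefore a description, and the part of depth and of this filter was not tested. Cldn11, a myelin claudin, was the third gene that rose against neuronal-only cells, by 0.82. It was at 8.12, 5.65, 4.90 and 17.5 CPM in dual cells of tumours 1 to 4. The size of its difference therefore also depends on the 10 CPM added. It too is a description, and the part of depth and of the filter in it was not tested. Bcas1, a gene of early myelinating cells, fell by 0.44 on the log2 scale against neuronal-only cells. Pdgfra, a precursor receptor, rose by 0.47 against mitotic-only cells. In the matched range Sox10 and Gpr17 were not tested, and none of the 5 genes of the list that were tested passed by limma in either comparison, with adjusted p from 0.475 to 0.848. Over all genes tested there, 1401 of 10871 against neuronal-only and 1603 of 10631 against mitotic-only cells had an unadjusted p under 0.05. The 10 genes of that lineage summed to 237, 139, 307 and 690.4 CPM in dual cells, against 351, 184, 195 and 253 CPM in neuronal-only and 206, 161, 182 and 320.4 CPM in mitotic-only cells. The dual sum was the highest of the 3 classes in tumours 3 and 4, at 1.58 and 2.73 times the neuronal-only sum, and lay below the neuronal-only sum in tumours 1 and 2. Of the astrocyte list, Sparc, a matricellular protein, rose by 0.59 against neuronal-only cells (limma adjusted p = 0.00982), but was at -0.0035 (adjusted p = 0.996) with every cell thinned. Slc1a2, a glutamate transporter, rose by 0.79 against mitotic-only cells (limma adjusted p = 0.000262), and its difference in the matched range was 0.69 (adjusted p = 0.0804). Vascular markers summed to 11.4 CPM or less in dual cells of any tumour, with Cldn5, Flt1 and Pdgfrb at 0 in each file that listed them.

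Dual cells varied among themselves in both programmes. The early neuron genes made up a median of 0.650%, 1.06%, 1.05% and 0.940% of a dual cell's UMIs in tumours 1 to 4, and the mitosis genes outside the gate 1.05%, 2.02%, 1.39% and 1.09%. Over cells, Spearman's rho between both shares was 0.10 in tumour 1 (n = 145), -0.27 in tumour 2 (n = 92), -0.32 in tumour 3 (n = 60) and -0.07 in tumour 4 (n = 44). These are descriptions over cells of 1 library each, in which both shares have the cell's UMIs as their denominator. The early neuron share was also lower in deeper dual cells, with rho to UMIs of -0.44, -0.13, -0.22 and -0.38, and so was the mitosis share, with -0.43, -0.14, -0.17 and -0.30.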

How the data were processed

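Each deposited table held log2 values per gene and cell, of the form log2(UMIs / size factor + 1), as read from the deposited values. Cell Ranger, Seurat and mm10 are named in the submitters' processing notes, with versions, roles and the tool behind the size factors not given in the sources used here. UMIs were worked out from these values and came out whole within 1e-08, so depth per cell was known. The tables held 13622 to 33219 genes, and 13149 were in all 4. UMIs were summed per tumour and class and divided into CPM. They were tested with limma 3.58.1 (trend and robust moderation, R 4.3.3) on log2(CPM + 10), with the tumour as a block because the classes came from the same library. Genes detected in at least 5% of the cells of any class compared entered, and the 15 gate genes did not. The mean of both parents was taken on CPM. The test was tried on simulated data.

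The minimum was 5 cells per class and tumour, which all 4 tumours met. Genes named are the 5 with the largest difference in each direction among those past the threshold, moved the same way in every tumour and at 20 CPM or more, up to 4 examples per list and direction, and 22 genes always named; some genes the rule picks are not reported here. Members and lists were chosen with earlier results of these data known. Symbols Casc5, Sgol1 and Sgol2 of the files were read as Knl1, Sgo1 and Sgo2a. Gene positions come from GENCODE M21. Scrublet in scanpy 1.11.5 was used for doublet calls, which removed no cells from the results. Alternatives covered mean log2 values, thinning to 4900 UMIs, the pseudocount (1 in place of 10), the filter on low genes, the block, each tumour left out, other gates, at least 10 cells a class, doublet calls and immune cells, plus a depth range and an immune share chosen after seeing the data.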

Additional observations from a re-analysis of the deposited data

Results flagged for a closer look

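Of 53 sets of 4 tumour values examined with Dixon's test, 2 had 1 tumour far from the other 3, and chance alone flags about 1 set in 20. The share of dual cells was 18.17% in tumour 1, against 3.55%, 4.88% and 2.32% in tumours 2 to 4. Tumour 1 also had the deepest cells, and from 10000 up to 20000 UMIs its share was 2.33%, against 7.58%, 8.89% and 1.88%.

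Cdkn1c, a kinase inhibitor that stops the cycle, was at 383.1 CPM in dual cells of tumour 1, against 48.9, 16.3 and 12.4 CPM in those of tumours 2 to 4. In the same tumour it was at 59.5 CPM in neuronal-only cells and at 270.5 CPM in mitotic-only cells. Its difference between dual and neuronal-only cells over the 4 tumours was 0.66 ± 0.56 (SE; limma adjusted p = 0.534).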

How the results depend on the processing

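Counts of called genes moved with the setting more than directions did. Thinning gave 463 higher and 385 lower against neuronal-only cells, 404 and 192 against mitotic-only cells, and 7 and 32 against the mean of both parents. With no replicate block, which ignores the pairing of classes within a tumour, the counts were 275 and 247, 141 and 9, and 0 and 0 (limma, with 420 genes at an unadjusted p under 0.05 in the last). Mean deposited log2 values gave 207 lower, 142 lower, and 1 higher and 0 lower, with 2300 genes at an unadjusted p under 0.05 in the last. A gate of 5 neuronal and at least 7 mitotic genes gave 397 and 458 against neuronal-only cells, 543 higher against mitotic-only cells, and 11 and 91 against the mean, and raised the depth ratio to neuronal-only cells to 4.15. Parents made of all other cells of each gate gave 26 and 83 against the mean. They were deeper than the parent classes in every tumour, which lowered the depth ratios. The range of 10000 to 20000 UMIs, chosen after seeing the data, gave 194 and 96, 252 and 118, and 1 and 5. Fewer cells and genes entered it. With each tumour left out, the counts ran over 619 to 945 higher and 707 to 975 lower against neuronal-only cells, 457 to 794 and 217 to 429 against mitotic-only cells, and 14 to 43 and 68 to 173 against the mean. The cause of these moves was not tested.

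Signs turned, without passing, within 10000 to 20000 UMIs for Atp5g1 against neuronal-only cells (-0.0014) and, against the mean of both parents, for Elavl4 (0.0668), Map1b (0.0762), Nhlh2 (0.0634), Stmn4 (0.16), Taf10 (-0.20) and Tubb3 (0.0542). Against neuronal-only cells the sign turned for Sparc after thinning (-0.0035). H2-DMb1 turned against the mean without cells of over 1% immune UMIs (0.0097). Gates applied after thinning, and leaving out cells with 3 immune genes, left 2 tumours with enough cells, so no fit was made for genes there.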
